A study of Mus musculus with 18 samples.

Results

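Retinas of mice lacking Rpe65 were compared between 2 and 6 months of age, to follow how the transcripts of the degenerating retina change from an early to a late stage. The comparison takes 6 of the 18 arrays of the series, chosen by their labels: 3 retinas of Rpe65-/- mice at 6 months (retinas 4, 5 and 6) against 3 at 2 months (retinas 1, 2 and 3). Rpe65-/- retinas at 4 months (retinas 25, 31 and 33) are given beside them, and C57BL/6 control retinas at 2 months (retinas 10, 11 and 9) and at 6 months (retinas 1, 2 and 3) show the same interval without the deletion. All 6 groups of the series hold 3 arrays, and the series calls them biological replicates. The labels give neither the sex of the mice nor the strain background of the knockouts, whose genotype is given only as Rpe65-/-. Total RNA was labelled with biotin and hybridised to Affymetrix mouse expression arrays.

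Rpe65 is the isomerase of the retinal pigment epithelium, the cell layer behind the photoreceptors, that makes the chromophore needed to regenerate visual pigment. Without it, rods and cones hold opsin without chromophore. In mice lacking it, cones are known to degenerate early, and rods are known to be lost slowly. The retina sampled here therefore contains photoreceptors, inner retinal neurons and Müller glia, and can carry pigment epithelium or lens that stayed attached in dissection.

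Each value is a ratio. The deposited ratios express a probe set's array-scaled signal relative to its own median over the 18 arrays, or relative to a fixed divisor where that median was low. Of 18193 genes, 11274 were read by a probe set with a median of 1, and these are called genes with a median of 1 below. The others are dim and noisy: their median standard deviation among arrays of a group was 1.10 in log2, against 0.23 in genes with a median of 1. Log2 fold changes are given ± the standard error of a limma fit over the 6 groups, and p-values are adjusted with Benjamini-Hochberg over all 18193 genes unless the narrower fit is named, which covers the 11274 genes with a median of 1. The threshold is an adjusted p of 0.05, and standard errors are always those of the fit over all genes. A ratio is set only against other ratios of the same gene.

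Several properties of the arrays moved with age. The median signal before scaling was 10.2 to 13.9 in knockouts at 2 months, 11.7 to 11.9 at 4 months, then 36.1 to 45.8 at 6 months, and it was also higher at 6 months in controls (32.8 to 41.3, against 6.80 to 13.2 at 2 months). The mean ratio of the hybridisation spike-ins was 0.797 to 0.913 in knockouts at 2 months and 2.03 to 2.57 at 6 months. Age and this difference between arrays cannot be told apart within the knockouts, so the control change over the same interval is given beside the knockout changes. Lens was uneven: the mean log2 ratio of 12 lens genes was -4.70, 2.20 and 5.30 in knockout retinas 1, 2 and 3 at 2 months and -4.64, -0.60 and -3.47 in retinas 4, 5 and 6 at 6 months. Xist and Y-linked genes marked 1 of the 6 knockout retinas as female (retina 6), while 2 of 3 controls at 2 months and 3 of 3 at 6 months were female. The mean log2 ratios of blood and vessel genes, dim ones included, overlapped between the ages in knockouts. The mean of 16 muscle and cornea genes was -1.73 to -1.18 at 2 months and -2.35 to -1.90 at 6 months. Only 3 of those 16 had a median of 1, and the median log2 fold change of these 3 was 0.36. The parts of lens, pigment epithelium and sex in the results below were not tested beyond the fits named beside them.

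Rpe65 itself was low at both ages. Its ratio was 0.0433, 0.111 and 0.0542 in knockouts at 2 months and 0.156, 0.0348 and 0.0828 at 6 months, and the groups overlapped (log2 0.26 ± 1.26, adjusted p = 0.967). At 4 months it was 0.780, 0.394 and 0.815. Controls ranged from 0.609 to 33.9 at 2 months and from 12.5 to 27.7 at 6 months. The probe set is dim, and whether it reads the deleted part of the gene is not given in the sources used here.

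In the knockouts, 18 of 18193 genes (0.0989%) changed between 2 and 6 months, 12 upward and 6 downward; 15 of them had a median of 1, 12 upward and 3 downward. The largest fall among these was in Opn1sw, the short-wavelength cone opsin. The rises included Glb1l3, Pltp, Elovl1, Slc4a2, Dusp4 and the clock gene Per3. In controls 15 genes (0.0824%) passed for the same interval. With the 6 knockout arrays fitted alone 0 genes passed by limma (2360 had an unadjusted p under 0.05). Leaving out knockout retinas 2 and 3, those of highest lens signal, leaves only retina 1 at 2 months, so calls of that fit are not given. The split of calls in the knockouts was 41 upward and 46 downward when each array was centred on its median, and 64 and 54 after quantile normalization. In those 2 fits, 17 of the 17 named genes of the main comparison passed.

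Among genes with a median of 1, the largest fall past the threshold was in a cone gene. The 250 bases before the start of 3 cone genes are therefore shown, from RefSeq, build GRCm38.p6. Capitals mark TAATCC or its reverse complement, the core bound by the photoreceptor factor CRX. The first is at chr6:29380514-29380763 on the minus strand, the second at chr6:136954273-136954522 on the plus strand and the third at chr3:108092816-108093065 on the plus strand.
Opn1sw: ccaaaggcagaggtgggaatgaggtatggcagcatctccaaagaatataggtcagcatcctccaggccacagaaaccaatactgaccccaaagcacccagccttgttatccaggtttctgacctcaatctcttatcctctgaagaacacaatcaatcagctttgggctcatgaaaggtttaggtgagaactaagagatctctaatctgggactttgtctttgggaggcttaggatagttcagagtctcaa
Pde6h: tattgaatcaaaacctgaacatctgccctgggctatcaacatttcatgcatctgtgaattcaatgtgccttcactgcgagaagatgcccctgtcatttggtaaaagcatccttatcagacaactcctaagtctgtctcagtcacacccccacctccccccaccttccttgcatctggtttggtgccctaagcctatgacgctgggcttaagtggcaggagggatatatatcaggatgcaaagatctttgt
Gnat2: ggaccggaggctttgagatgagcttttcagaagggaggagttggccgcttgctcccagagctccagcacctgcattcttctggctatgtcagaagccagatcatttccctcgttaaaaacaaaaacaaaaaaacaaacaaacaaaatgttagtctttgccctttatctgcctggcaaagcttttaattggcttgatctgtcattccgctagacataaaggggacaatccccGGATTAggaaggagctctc
The windows searched for the motif, on both strands, span 250 bases before to 50 after a start. The core was in 7.06% of the 32851 promoter windows of that length. It was in a window of Gnat2 and of Thrb among the 10 cone genes with a window, and in a window of 5 of the 12 rod genes. No copy was found in the window of Opn1sw or Pde6h, which says only that these letters are not in that stretch.

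Opn1sw was already low at 2 months and lower still at 6 months. The 2-month knockouts had ratios of 0.226, 0.318 and 0.235, those of 4 months 0.0885, 0.0763 and 0.0545, and those of 6 months 0.0476, 0.0677 and 0.0448. The 3 arrays at 6 months all lay below the 3 at 2 months, a 4.89-fold fall (log2 -2.29 ± 0.25, adjusted p = 0.00234). Control ratios overlapped between the ages, with 2.82, 3.68 and 2.85 first and 2.92, 1.84 and 2.23 later (log2 -0.43). The ratio of controls to knockouts went from 12-fold at 2 months to 43.6-fold at 6 months. A further, dimmer probe set for Opn1sw (mean signal 28.2 against 459) changed by -0.48, and with the mean of both probe sets the gene did not pass (log2 -1.38, adjusted p = 0.190). Nor did Opn1sw pass by limma with the knockout arrays alone (adjusted p = 0.110). Without knockout retinas 2 and 3, which leaves only retina 1 at 2 months, its log2 change was -2.11.

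Cone genes other than Opn1sw had smaller changes, and none passed. The cone list held 14 genes with a median of 1. Of them 4 lay lower in all 3 arrays at 6 months than in all 3 at 2 months, 28.6% of the list, where 12.9% of all genes with a median of 1 did so; 1 lay higher (Ccdc136), where 15.7% of all such genes did. In controls 3 of the 14 lay lower and 0 higher, where 11% and 9.66% of genes with a median of 1 did. The list's median log2 fold change was -0.39, beside 0.02 for all genes with a median of 1, and it was -0.20 in controls.

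Pde6h, the inhibitory subunit of cone phosphodiesterase, was 0.574, 0.738 and 0.474 at 2 months and 0.287, 0.359 and 0.371 at 6 months (log2 -0.80 ± 0.21, adjusted p = 0.165; control -0.21). Gnat2, the cone transducin alpha subunit, was 0.515, 0.728 and 0.568 at 2 months and 0.417, 0.425 and 0.405 at 6 months (log2 -0.52 ± 0.18, adjusted p = 0.259; control -0.25). In both genes every array at 6 months lay below every array at 2 months, and controls of the 2 ages overlapped. Pde6c, the catalytic subunit of cone phosphodiesterase, was 0.589, 0.595 and 0.327 at 2 months and 0.296, 0.357 and 0.311 at 6 months, overlapping at retina 3 (log2 -0.60 ± 0.25; control 0.10). The middle-wavelength opsin Opn1mw overlapped as well, with 0.681, 1.03 and 0.618 at 2 months and 0.471, 0.661 and 0.608 at 6 months (log2 -0.40 ± 0.32; control -0.01). Cone arrestin Arr3 went the other way on average, from 0.224, 0.392 and 0.214 to 0.332, 0.473 and 0.387 (log2 0.57 ± 0.25; control 0.14), with overlap. Cone genes thus did not share 1 course: the fall that passed was that of Opn1sw.

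**Figure D1:**
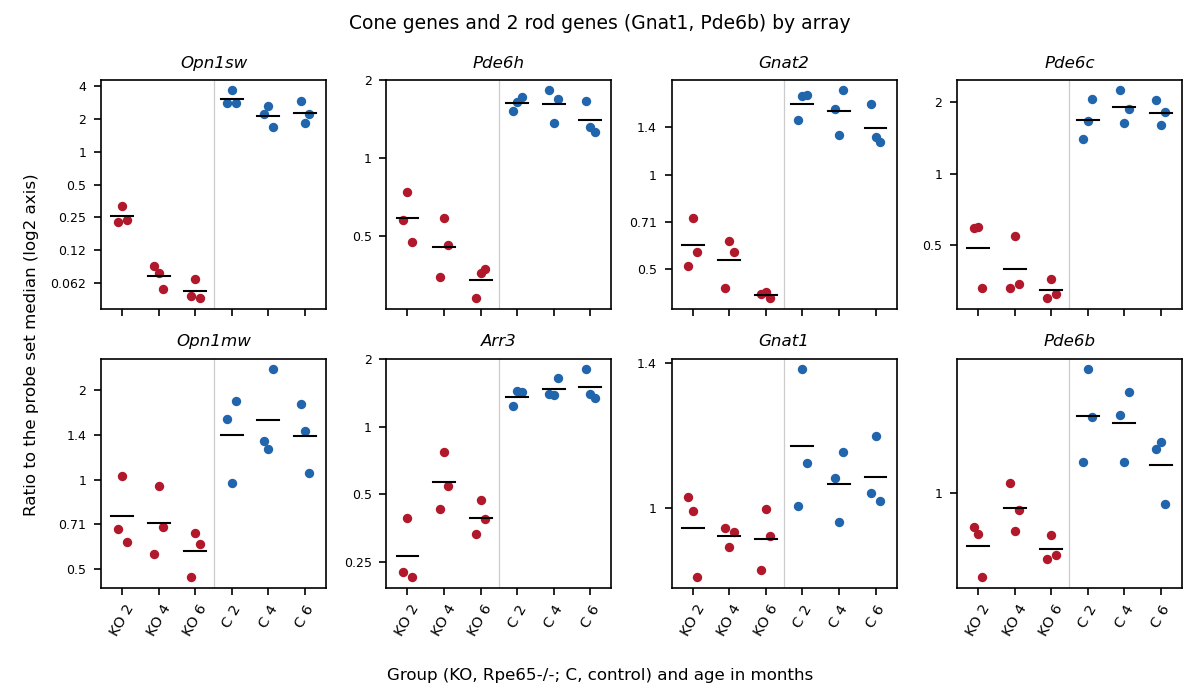
Ratio to the probe set median (log2 axis) of 6 cone genes and 2 rod genes in each array of the knockout (red) and control (blue) groups at 2, 4 and 6 months; points are arrays and bars are geometric means of 3. Opn1sw falls from 0.226 to 0.318 at 2 months to 0.0448 to 0.0677 at 6 months in knockouts, while Gnat1 stays between 0.846 and 1.03.

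Rod genes changed little in size. Of 16 rod genes with a median of 1, 0 passed; 5 lay lower in all arrays at 6 months (31.2%, beside 12.9% of genes) and 0 higher (beside 15.7%), and 13 of the 16 changes were negative, as they were in controls. The list's median was -0.04 (control -0.11). Rod transducin Gnat1 was 1.03, 0.993 and 0.846 at 2 months and 0.860, 0.996 and 0.934 at 6 months (log2 -0.04 ± 0.13; control -0.11). The rod phosphodiesterase subunits differed little: Pde6b was at -0.01 ± 0.11 (control -0.16) and Pde6a at -0.22 ± 0.16 (control -0.01). The phosphodiesterase inhibitory subunit Pde6g was at -0.10 ± 0.12 (control -0.15). Arrestin Sag was at -0.00 ± 0.13 (control -0.04), and the rod transcription factor Nrl at -0.14 ± 0.13 (control -0.17). Prph2, a structural protein of outer segment discs, stood apart with -3.81 ± 1.58 and -2.42 in controls, but its probe set ran from 2.18 to 10.8 within the 2-month knockouts and from 0.191 to 1.04 at 6 months.

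Genes shared by rods and cones lay lower at 6 months more often than all genes, and higher about as often. Of 32 with a median of 1, 12 lay lower (37.5%, beside 12.9% of genes) and 6 higher (18.8%, beside 15.7%) in all 3 arrays at 6 months, and 0 passed. In controls 5 lay lower and 0 higher, where 11% and 9.66% of genes with a median of 1 did. Nxnl1, which encodes rod-derived cone viability factor, was 0.938, 0.997 and 0.973 at 2 months and 0.547, 0.471 and 0.832 at 6 months (log2 -0.70 ± 0.19, adjusted p = 0.179; control -0.23). Elovl4, which makes very long chain fatty acids of outer segments, was 1.07, 0.981 and 1.10 at 2 months and 0.632, 0.699 and 0.777 at 6 months (log2 -0.58 ± 0.16; control -0.84). The photoreceptor transcription factor Crx was at -0.26 ± 0.14 (control -0.15), but a further probe set with a median of 1 was at 0.23 (control 0.26), so no direction is given for it. Its upstream factor Otx2 was at 0.20 ± 0.11 (control 0.02). The guanylate cyclase activator Guca1b was the highest of the list at 0.45 ± 0.11 (adjusted p = 0.153; control 0.08), from 0.704, 0.671 and 0.636 to 0.870, 0.988 and 0.893.

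Of the photoreceptor cilium and its synapse, 1 gene passed. Lca5 encodes lebercilin, a ciliary protein whose loss causes a blinding disease of infancy. Its ratio was 1.18, 1.28 and 1.18 at 2 months, 0.965, 0.948 and 0.847 at 4 months, then 0.785, 0.599 and 0.719 at 6 months (log2 -0.80 ± 0.13, adjusted p = 0.0350). Controls went from 1.09, 1.18 and 1.30 to 0.938, 0.783 and 0.832 (log2 -0.48), also without overlap. Cep290, another ciliary disease gene, changed by -0.82 in knockouts and -0.61 in controls without passing. Of 29 ciliary transport genes 6 lay lower (20.7%, beside 12.9% of genes) and 3 higher (10.3%, beside 15.7%) in all knockout arrays at 6 months. In controls 9 lay lower and 2 higher, where 11% and 9.66% of genes with a median of 1 did. Of 19 ribbon synapse genes 6 lay lower (31.6%) and 3 higher (15.8%), and in controls 4 and 2. Lrit1, a synaptic protein of photoreceptors, changed alike in knockouts (-0.76 ± 0.20) and controls (-0.78).

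The rises that passed belonged to no single list. Glb1l3, a member of the beta-galactosidase family, rose 7.62-fold, from 0.148, 0.0746 and 0.139 at 2 months to 0.979, 0.927 and 0.743 at 6 months (log2 2.93 ± 0.32, adjusted p = 0.00234). Its controls also rose, from 1.02, 1.52 and 1.17 to 4.27, 3.52 and 3.65 (log2 1.64), so the knockouts at 6 months lay below the controls of 2 months. Pltp, the phospholipid transfer protein, rose 4.04-fold, from 0.402, 0.357 and 0.393 to 1.25, 1.79 and 1.66 (log2 2.02 ± 0.34, adjusted p = 0.0475). Control retinas ran from 0.459 to 1.24 at 2 months and 0.830 to 1.31 at 6 months for Pltp, and they overlapped (log2 0.60). A further, dimmer Pltp probe set with a median of 1 was at 2.00 in knockouts and 1.40 in controls. The size of the control change thus depends on the probe set. For Pltp and Elovl1 the highest of the 2-month controls was retina 10, which also had the highest mean of pigment epithelium genes in that group, and Pltp with that mean as a covariate was at 1.33 and did not pass.

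Elovl1, an elongase of very long chain fatty acids, rose from 0.608, 0.622 and 0.597 to 1.27, 1.5 and 1.29 (log2 1.15 ± 0.18, adjusted p = 0.0350; control 0.75). Slc4a2, an anion exchanger, rose from 0.551, 0.585 and 0.591 to 1.26, 1.67 and 1.21 (log2 1.25 ± 0.20, adjusted p = 0.0356; control 0.45). Both had reached 1.05 or more in every knockout array at 4 months. Rab37, a small GTPase of vesicle transport, rose from 0.656, 0.490 and 0.787 to 1.5, 1.40 and 1.98 (log2 1.35 ± 0.21; control 0.90). Cltb, a clathrin light chain, rose by 0.82 ± 0.13 (control 0.58), and Drap1, a corepressor of transcription, by 0.95 ± 0.13 (control 0.56).

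A further 4 of the rises had control changes under 0.25. Azin2, an antizyme inhibitor of polyamine metabolism, rose from 0.876, 0.919 and 0.634 to 1.87, 1.64 and 1.83 (log2 1.15 ± 0.20, adjusted p = 0.0488; control -0.09), but a further probe set of like signal was at -0.06 (control -0.38). Dusp4, a phosphatase of MAP kinases, rose from 0.40, 0.471 and 0.403 to 0.924, 1.0 and 0.812 (log2 1.10 ± 0.17, adjusted p = 0.0350; control 0.05), while controls lay between 0.997 and 1.5 at both ages. Polr3e, a subunit of RNA polymerase III, rose by 0.95 ± 0.15 (control 0.07), but a further probe set changed by -0.13. Per3, a gene of the circadian clock, rose from 0.613, 0.590 and 0.731 to 1.14, 1.26 and 1.0 (log2 0.82 ± 0.13, adjusted p = 0.0350; control 0.24), and its 3 further probe sets with a median of 1 changed by 0.25 to 0.37.

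**Figure D2:**
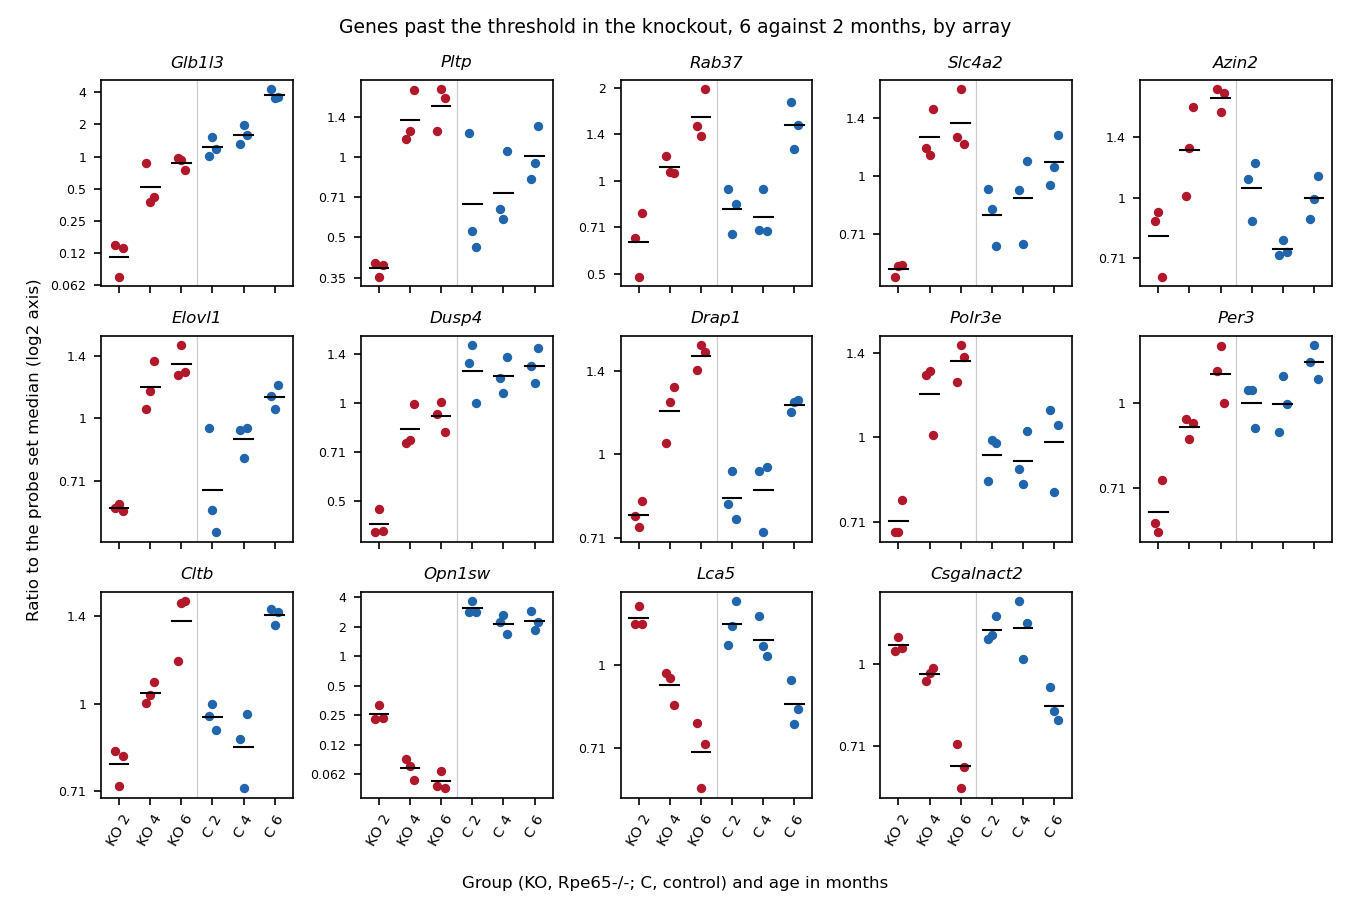
Ratio to the probe set median (log2 axis) by array for the 14 named genes with a median of 1 that passed in the knockouts, 6 against 2 months; knockouts are red, controls blue, and bars are geometric means of 3 arrays. In each panel the 3 knockout arrays at 6 months lie on 1 side of the 3 at 2 months, and in Glb1l3, Rab37, Slc4a2, Elovl1, Drap1, Per3, Cltb, Lca5 and Csgalnact2 the controls of the 2 ages separate the same way.

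Csgalnact2, an enzyme that starts and extends chondroitin sulfate chains, fell from 1.06, 1.12 and 1.07 to 0.713, 0.591 and 0.646 (log2 -0.74 ± 0.11, adjusted p = 0.0350; control -0.46). Among dim genes the falls were in Rasl11a (log2 -2.85 ± 0.44; control -0.30), the claudin Cldn10 (-2.49 ± 0.41; control 0.09) and the zinc finger gene Zfp772 (-2.20 ± 0.24; control -0.21), and 0 dim genes rose. Zfp772 went from 0.898, 1.13 and 1.15 to 0.211, 0.341 and 0.166 (adjusted p = 0.00234), with controls between 0.793 and 1.26 at both ages. Its mean array-scaled signal was 9.93. A further Zfp772 probe set, also dim (mean signal 6.60), was at -0.90 in knockouts and -0.72 in controls.

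Each array left out in turn brought the number of genes that changed from 18 to between 5 and 9. Without knockout retina 1, 2 or 3 it was 6, 5 and 5, and without retina 4, 5 or 6 it was 8, 9 and 6. Opn1sw, Glb1l3 and Zfp772 passed in all 6 of these fits. With a pigment epithelium, lens or sex covariate 4, 5 and 6 genes passed.

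Fitting only genes with a median of 1, which removes the noisy dim genes from the estimate of spread, 106 genes passed: 66 upward (0.585%) and 40 downward (0.355%). In all 106 the knockout arrays of the 2 ages did not overlap, which is close to given, since they were selected on these same arrays. Of all genes with a median of 1, 15.7% lay higher and 12.9% lower without overlap. In controls 109 of the 11274 genes (0.967%) passed in this fit, and 22 genes passed in both genotypes, 22 of the 106 knockout calls and 22 of the 109 control calls. The control change had the same sign for 102 of the 106, and for 66 it was at least 0.5 times the knockout change. Across the 11274 genes the changes in knockouts and controls correlated with a Pearson's r of 0.50, where genes are not independent and both changes share the brighter arrays at 6 months. The number of calls fell to 4 with the pigment epithelium covariate and to 42 with the sex covariate, was 103 with the lens covariate, and fell to 9 without knockout retina 5 and 13 without retina 4. It was 29, 58 and 42 without retina 1, 2 or 3, and 32 without retina 6. The genes named from this narrower fit follow the same rule, applied after their values were seen. Of the 38 genes named that passed in it, 19 have a further probe set with a median of 1; for 13 every such probe set had the same sign of change in knockouts, and for 6 at least 1 had the opposite sign.

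**Figure D3:**
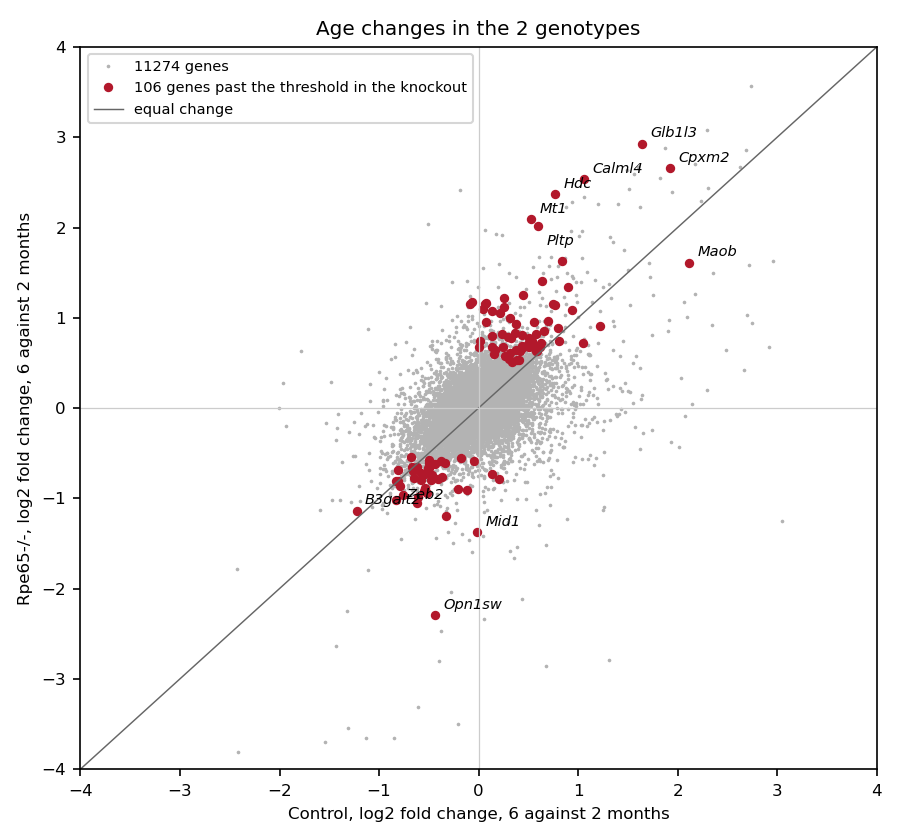
Log2 fold change from 2 to 6 months in knockouts (vertical) against controls (horizontal) for the 11274 genes with a median of 1 (grey); red points are the 106 genes that passed in the knockouts in the narrower fit, the diagonal marks equal change, and 4 genes lie outside the axes. Opn1sw lies far below the diagonal, whereas B3galt2 and Zeb2 lie close to it and most red points share the sign of their control change.

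The largest rises of the narrower fit were of varied function, and Mt1 was the only member of the gliosis and stress list to pass. Mt1, a metallothionein that binds zinc and copper, went from 0.308, 0.334 and 0.342 at 2 months to 1.15, 1.64 and 1.47 at 6 months (log2 2.10 ± 0.39, adjusted p = 0.0184 in the narrower fit and 0.0625 over all genes; control 0.53). It stood at 1.07, 1.21 and 1.38 at 4 months. With the pigment epithelium covariate it was at 1.36 and did not pass, and control retina 10 was again the highest of the 2-month controls (1.09, against 0.498 and 0.506). Mt2 did not pass, at 1.5 ± 0.38 (control 0.30), without overlap. Mogat1, an acyltransferase of glyceride synthesis, rose by 1.22 (control 0.26). Plin2, a coat protein of lipid droplets that was not named by the rule, was at 1.07 (control 0.13).

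Hdc, which makes histamine, rose by 2.37 from very low values, 0.0319, 0.0524 and 0.0148, to 0.352, 0.0627 and 0.155, while controls ran from 1.65 to 3.79 over the 2 ages. Sh2d1a, a signalling adaptor, rose from 0.389, 0.360 and 0.325 to 0.902, 0.836 and 0.699 (log2 1.18; control -0.07). Clcn2, a chloride channel, rose by 1.16 (control 0.07), and the kinase gene Matk by 1.16 (control 0.07), with 0.20 at a further probe set. Maob, monoamine oxidase B, rose in knockouts by 1.61, and its control change was 2.12. Calml4 (2.54; control 1.06), Cpxm2 (2.65; control 1.92) and Shisal2b (1.41; control 0.63) complete the rises named by the rule. Control retina 10 was again the highest of the 2-month controls for Calml4 (1.58, against 0.256 and 0.221) and Cpxm2 (0.869, against 0.117 and 0.281). For Shisal2b that retina was the lowest of them (0.482, against 0.773 and 0.787). Leaving out knockout retinas 2 and 3, those of highest lens signal, leaves only retina 1 at 2 months, so calls without them are not given for the narrower fit.

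Some falls in the narrower fit came with little change in controls, and others with an equal one. Mid1, a ubiquitin ligase on the X chromosome, fell by 1.38 on the log2 scale in knockouts, from 1.80, 1.83 and 1.78 to 0.597, 0.644 and 0.874 (control -0.01), but at 4 months it was 1.07, 2.62 and 2.43. Paqr3 fell by 1.20 (control -0.33), and Hey2, a transcription factor of the Notch pathway, fell by 0.90 (control -0.21). Usp25, a deubiquitinase, fell by 0.91 (control -0.11), but was at -0.09 at a further probe set of like signal. The changes of B3galt2 (-1.14; control -1.23), Zeb2 (-0.80; control -0.81), Tasor2 (-0.81; control -0.83), Zfp942 (-0.87; control -0.79) and Lekr1 (-1.02; control -0.83) were close in both genotypes. Dennd6a, Mtfr1, Tmem123, Ciao2a and Epha4 changed by -1.05 to -0.89 in knockouts and by -0.76 to -0.52 in controls. Further probe sets with a median of 1 were at 0.19 for Dennd6a, 0.03 for Mtfr1, -0.34 for Ciao2a and -0.16 to 0.19 for Epha4, while that of Tmem123 was at -1.31. Those of Zeb2 were at -1.01 to 0.27, and that of Tasor2 at -0.38.

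Genes of the visual cycle and pigment epithelium were higher at 6 months as a group, although 0 of them passed in either fit. Of 23 with a median of 1, 14 lay higher and 0 lower in all 3 arrays (60.9%, beside 15.7% of genes), and their median was 1.07. In controls the median was 1.49, with 0 higher and 1 lower in all arrays, where 9.66% and 11% of genes with a median of 1 were. Control retina 10 at 2 months had a mean above the 6-month controls. Lrat, the enzyme that stores retinol as esters, was 0.179, 0.207 and 0.198 at 2 months, 1.90, 1.74 and 2.14 at 4 months, then 1.39, 2.08 and 1.54 at 6 months (log2 3.08 ± 1.05, adjusted p = 0.265; control 2.29). Rdh5, a retinol dehydrogenase, was 0.213, 0.334 and 0.295 at 2 months and 1.42, 2.18 and 1.74 at 6 months (log2 2.66 ± 0.89; control 1.93). Lrat and Rdh5 were low in all 3 knockouts at 2 months and in 2 of the 3 controls of that age.

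Rgr (2.86 ± 1.07; control 2.69), an opsin of the pigment epithelium, Stra6 (2.70 ± 0.92; control 2.18), the retinol receptor, Kcnj13 (2.64 ± 0.83; control 1.49), a potassium channel, and Slc16a8 (2.23 ± 0.58; control 1.62), a lactate transporter, also lay higher in every 6-month array. Pigment synthesis genes differed less in knockouts, though not in controls, and overlapped in knockouts. Tyrp1 was at 0.67 ± 0.90 (control 2.92) and Dct at 1.03 ± 0.90 (control 2.70), and knockout retina 3 at 2 months had ratios of 1.12 and 1.10. Averaged over the list, the log2 ratio per array was -1.25, -0.92 and -0.56 in the youngest knockouts, 0.30, 0.31 and 0.84 in those aged 4 months and 0.24, 0.71 and 0.37 in the oldest. Control retinas averaged 0.26, -2.60 and -2.38 when young and -0.29, -0.14 and 0.17 when old. In these whole-tissue samples fewer cells of a type and less RNA per cell cannot be told apart. With this mean as a covariate, 3 of the 17 named genes passed over all genes, among them Opn1sw (-2.11) and Glb1l3 (3.09).

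**Figure D4:**
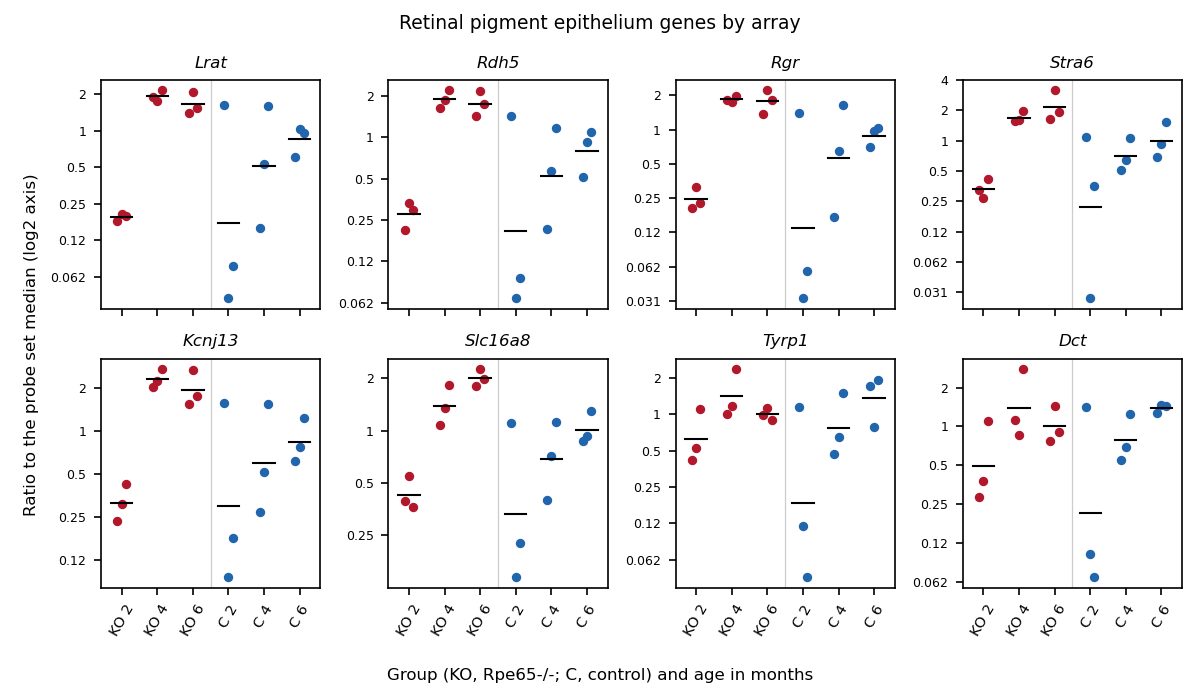
Ratio to the probe set median (log2 axis) of 8 pigment epithelium genes by array; knockouts are red, controls blue, and bars are geometric means of 3 arrays. In knockouts Lrat goes from 0.179 to 0.207 at 2 months to 1.39 to 2.08 at 6 months, and controls at 2 months split, with 1 high array (retina 10, 1.62) and 2 low ones.

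Glial and immune genes were mixed. Of 20 Müller glia genes 5 lay higher (25%) and 3 lower (15%) in all arrays at 6 months, not far from the 15.7% and 12.9% of all genes, and 0 passed. Glul, glutamine synthetase, was at 0.00 ± 0.10 (control -0.04), and the intermediate filament gene Vim at -0.82 ± 0.32 (control -0.38), with 2.65 in knockout retina 3 at 2 months. Gfap, the filament that marks reactive glia, was 1.04, 1.32 and 0.963 at 2 months and 1.37, 1.32 and 2.45 at 6 months (log2 0.58 ± 0.53, adjusted p = 0.732; control -0.66), with the groups touching at 1.32. A further Gfap probe set with a median of 1 was at 0.34 in knockouts and 0.13 in controls, so the control direction depends on the probe set. The apolipoprotein gene Apoe was 0.64 ± 0.19 higher, beside 0.98 in controls.

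Of 15 antigen presentation and interferon genes with a median of 1, 6 lay higher (40%, beside 15.7% of genes) and 1 lower (6.67%, beside 12.9%) in knockouts. In controls 9 lay higher and 1 lower, where 9.66% and 11% of genes did, and the medians were 0.25 in knockouts and 0.81 in controls. H2-K1 and H2-D1, class I histocompatibility genes, passed in the narrower fit. H2-K1 went from 0.739, 0.846 and 0.788 to 1.47, 1.78 and 1.25 (log2 0.91 ± 0.22, adjusted p = 0.0479 in that fit and 0.137 over all genes), and its control change was 1.22. H2-D1 rose by 0.74 (control 0.81). These genes are near-identical copies of a family, and further probe sets for H2-K1 changed by -0.04 to 1.34. Microglia and complement genes had a median of -0.07 over the 9 with a median of 1; Csf1r, the receptor of a macrophage growth factor, was the highest of the list at 1.30 ± 0.34 (adjusted p = 0.162; control 0.78) among those 9. Over all 27 measured genes of the list, dim ones included, the mean log2 ratio was -1.08 to -0.70 per array at 2 months and -0.91 to -0.69 at 6 months. The median log2 ratio of the 9 was 0.001, 0.19 and 0.04 in the arrays at 2 months and 0.31, 0.07 and 0.44 at 6 months.

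Immediate early genes are switched on in neurons by activity. Of 12 with a median of 1, 5 lay lower (41.7%, beside 12.9% of genes) and 0 higher (beside 15.7%) in all knockout arrays, and 0 passed. In controls 1 lay lower and 2 higher, where 11% and 9.66% of genes with a median of 1 did. Egr1 was 1.54, 1.38 and 1.58 at 2 months, 0.541, 0.312 and 0.346 at 4 months, then 0.764, 0.582 and 0.810 at 6 months (log2 -1.07 ± 0.40, adjusted p = 0.306). Controls went from 1.0, 0.997 and 0.643 to 1.61, 1.24 and 1.43 (log2 0.72). Fos was 0.963, 0.723 and 1.07 at 2 months and 0.497, 0.642 and 0.575 at 6 months (log2 -0.67 ± 0.20; control 0.05), and Nr4a1 was at -0.65 ± 0.28 (control -0.12).

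Per3 was the 1 gene of the clock list that passed. Of 17 with a median of 1, 8 lay higher (47.1%, beside 15.7% of genes) and 1 lower (5.88%, beside 12.9%) in all knockout arrays. In controls 3 lay higher and 1 lower, where 9.66% and 11% of genes with a median of 1 did. The list's median was 0.27 (control 0.01). Dbp, an output of the clock, was 0.53 ± 0.16 higher (control 0.37), Ciart 0.55 ± 0.22 (control -0.20) and Nr1d1 0.35 ± 0.15 (control 0.59). Cry1, a repressor of the clock, was at -0.31 ± 0.19 (control -0.51). The hour at which retinas were taken is not given in the labels.

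Of chaperone and unfolded protein response genes 10 of 29 lay lower (34.5%, beside 12.9% of genes) and 3 higher (10.3%, beside 15.7%) in all knockout arrays, and 0 passed. In controls 3 lay lower and 3 higher, where 11% and 9.66% of genes with a median of 1 did. Among them the endoplasmic reticulum genes Dnajc3 (-0.67 ± 0.17; control -0.26), Calr (-0.48 ± 0.16; control -0.05) and Canx (-0.41 ± 0.11; control -0.51) were lower, with smaller values at further probe sets of Dnajc3 (-0.24 to -0.10) and Canx (-0.29 to -0.07). Ddit3, a transcription factor of that response, was at 0.53 ± 0.14 (control 0.24), and a dimmer further probe set was at -0.69 (control -0.49). Of 24 autophagy and lysosome genes 8 lay higher (33.3%) and 2 lower (8.33%), and in controls 6 and 3; Npc2, a cholesterol carrier of lysosomes, was highest at 0.87 ± 0.27 (control 0.69), with further probe sets at 0.62 and -0.93. Of 18 glycolysis genes 7 lay higher (38.9%) and 1 lower (5.56%), and in controls 5 and 0; the higher ones included Pkm (0.41 ± 0.13; control 0.29) and Eno2 (0.44 ± 0.11; control 0.26). Oxidative phosphorylation genes (21.4% higher and 3.57% lower of 28) and cell death genes (28.6% and 14.3% of 21) had medians of 0.08 and 0.07, and 0 genes of these 5 lists passed in either fit.

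Inner retinal neurons gave small values. Of 16 ganglion cell genes 5 lay higher (31.2%, beside 15.7% of genes) and 1 lower (6.25%, beside 12.9%), with a median of 0.13 (control -0.18). ON bipolar genes, with 18.8% higher and 6.25% lower of 16, were near the share of all genes that lay higher. In the amacrine list Slc6a9, a glycine transporter, passed in the narrower fit (0.51 ± 0.11, adjusted p = 0.0468; control 0.33). The other lists of neurons had 0 genes past the threshold in either fit.

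**Figure D5:**
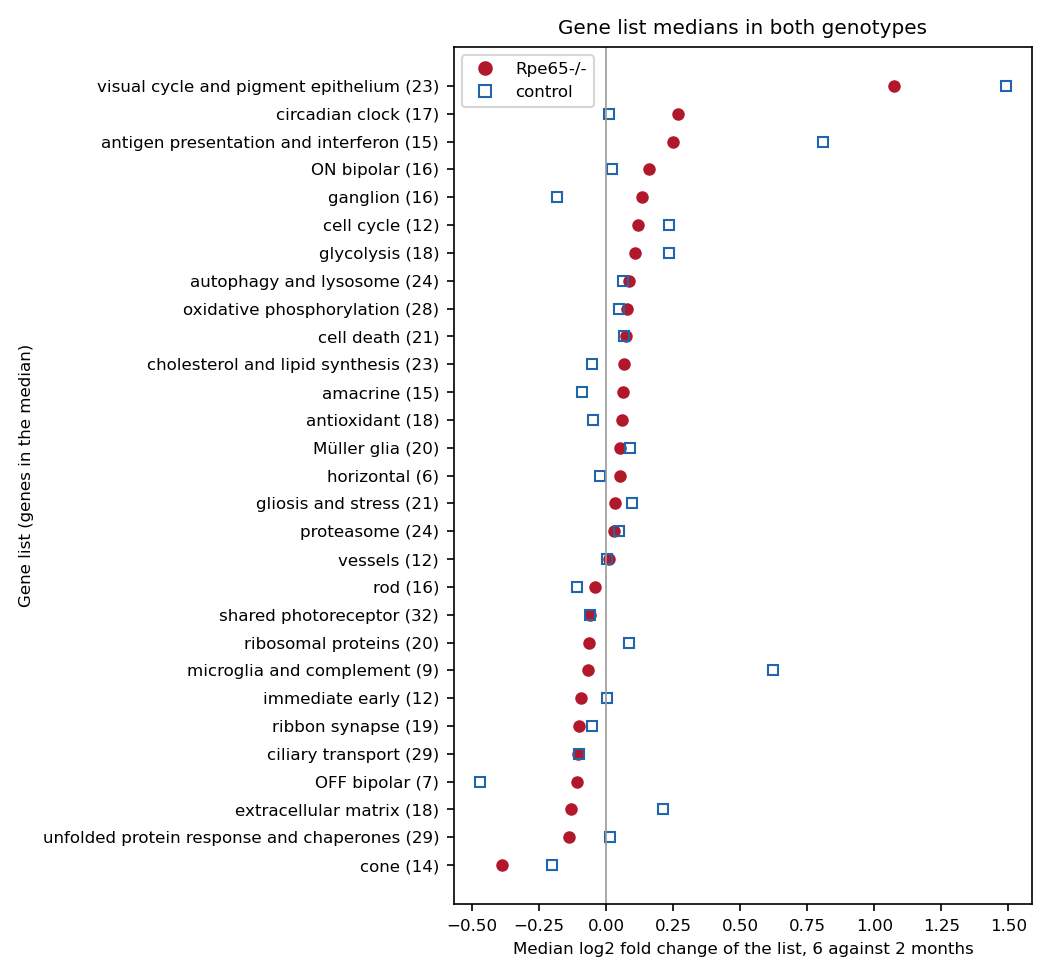
Median log2 fold change from 2 to 6 months of 29 gene lists (all but lens, blood, sex and muscle and cornea), over members with a median of 1 (number in parentheses), in knockouts (red circles) and controls (blue squares). The cone list is lowest in knockouts at -0.39 (control -0.20), and the visual cycle and pigment epithelium list is highest in both genotypes (1.07 and 1.49).

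Whether the change from 2 to 6 months differed between knockouts and controls was tested for every gene. By limma, 0 of 18193 genes passed, and 820 (4.51%) had an unadjusted p under 0.05. In the narrower fit 0 of 11274 passed, and 533 (4.73%) had an unadjusted p under 0.05. Named as not passing, the 5 genes with a median of 1 of smallest p with a knockout change below the control change were Gsr, Insl5, Wdfy1, Opn1sw and Agfg2. Opn1sw had a difference of -1.86 ± 0.35 (unadjusted p = 0.000142, adjusted p = 0.243). Of these 5, Opn1sw alone had a knockout change that passed; for Gsr, glutathione reductase, knockouts changed by 0.15 and controls by 1.10, a difference of -0.95 ± 0.17. A further Gsr probe set of like signal went the other way in controls (-0.73, with 0.22 in knockouts), so the sign of that difference depends on the probe set.

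In the other direction the 5 genes were Dio2, Azin2, Sh2d1a, Dusp4 and Polr3e. Dio2, a deiodinase that activates thyroid hormone, changed by -0.19 in knockouts and by -1.93 in controls, a difference of 1.74 ± 0.29 (adjusted p = 0.243). Its control ratios were 2.48, 2.89 and 1.99 at 2 months and 0.560, 0.855 and 0.535 at 6 months, while all knockout arrays of both ages lay between 0.840 and 1.16. For Azin2, Sh2d1a, Dusp4 and Polr3e the differences were 1.24, 1.25, 1.05 and 0.88 (adjusted p from 0.575 to 0.703), and the change lay in the knockouts; for Azin2 and Polr3e it was not seen at the further probe sets named above. The comparisons of 4 and of 6 against 2 months share the 2-month arrays, so the 4-month values above are a description.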

How the data were processed

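The members and gene lists were chosen with earlier results of these data known. The authors deposited 1 ratio per probe set and array, and the submitters' processing notes name RMA for 18 samples and GCOS for 16, without versions. From the steps in the values, the deposited ratio is a signal divided by an array factor and by the probe set's median over 18 arrays, or by a fixed divisor; which scale the signal had before is not given in the sources used here. Of 45101 probe sets, 34945 named 1 gene by the platform annotation, 932 several and 9160 none, and 64 were control sets. A gene was read by the brightest probe set with a median of 1, otherwise by its brightest other. Ratios were floored at 0.01 and taken to log2. Means of 6 groups over 18 arrays were fitted with limma 3.58.1 in R 4.3.3 (12 residual degrees of freedom), with Benjamini-Hochberg adjustment; the code was tested on simulated data. The number of arrays limits the precision, and where mice were not separate the p-values measure only the spread between these arrays.

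Named genes were, by rule, Rpe65, the 15 largest rises and falls past the threshold without overlap between the ages (symbols only), the 3 largest each way among dim genes, and, for the difference between genotypes, the 5 of smallest p each way. The 33 lists were of retinal cell types, tissues that could be attached, and pathways. Alternatives were the normalization, pseudocounts, filters on dim genes, covariates for sex, lens and pigment epithelium, and arrays left out.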

Additional observations from a re-analysis of the deposited data

Results flagged for a closer look

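Among the 588 named genes and list members with a median of 1, 4 (0.68%) had every array at 6 months on 1 side of those at 2 months in knockouts and on the opposite side in controls; 48 of all 11274 genes with a median of 1 (0.426%) did. The difference between genotypes was -1.79 for Egr1 (knockout -1.07, control 0.72), with an unadjusted p of 0.00687 and an adjusted p of 0.935 by limma. It was -1.23 for Wdfy1 (knockout -0.19, control 1.04; adjusted p = 0.243 by limma). It was -0.43 for Ier2 (knockout -0.10, control 0.33) and -0.53 for Pdia6 (knockout -0.29, control 0.25), with an adjusted p of 0.9987 for both by limma. None of the 4 differences passed.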

How the results depend on the processing

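No paired analysis was possible because the knockout groups at 2 and 6 months share no replicate number. The 18 genes that passed in knockouts became 116 on log2(signal + 16), 187 on log2(signal + 64), 118 after quantile normalization, 87 after centring, 106 with genes of median 1 only, 111 without the dimmest 40%, 111 with array weights and 37 with a trended robust fit. They became 6 with sex, 5 with lens and 4 with pigment epithelium as covariate, 6 with the male knockout arrays alone, 4 with Benjamini-Yekutieli adjustment, 3 against a 1.5-fold minimum and 0 with the knockout arrays alone (limma; 2360 genes had an unadjusted p under 0.05). Leaving out 1 array gave 5 to 9. Without the 2 knockout arrays of highest lens signal only retina 1 is left at 2 months, so calls are not given, and Opn1sw was at -2.11. For the difference between genotypes, 2 genes passed with the mean of probe sets, and 0 to 3 with 1 array left out (3 without knockout retina 5, 2 without control retina 10 at 2 months or retina 1 at 6 months). In controls 15 became 109 with genes of median 1 only and 96 on log2(signal + 16). The 106 of the narrower fit became 4, 42 and 21 with the pigment epithelium covariate, the sex covariate and without the lens-rich arrays, 103 with the lens covariate, 192 on log2(signal + 16), and 9 to 58 with 1 array left out; these were chosen after seeing the data. Rpe65 reversed to -0.48 (sex covariate), -2.19 (pigment epithelium covariate), -0.016 (without knockout retina 1) and -0.25 (without retina 4; up to 0.83 without retina 5), and Polr3e to -0.13 without cross-hybridising probe sets. The causes were not tested.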

Other observations

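Among lists not described above, 0 of 23 cholesterol and lipid synthesis genes, 0 of 20 ribosomal protein genes and 0 of 24 proteasome genes passed in knockouts in either fit, with medians of 0.07, -0.06 and 0.03. Of 18 extracellular matrix genes with a median of 1, 22.2% lay higher and 5.56% lower in all knockout arrays at 6 months, beside 15.7% and 12.9% of all genes with a median of 1. The shares were 16.7% and 11.1% of 18 antioxidant genes and 8.33% each way of 12 cell cycle genes, near those of all genes.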
